A study of Mus musculus with 10 samples.

Results

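Goblet cells are the mucus-secreting cells of the intestinal epithelium, and 10 genes of their mucus programme are described here in RNA-seq counts from proximal small intestine of WT and KO mice. The genes are *Muc2*, *Tff3*, *Clca1*, *Fcgbp*, *Zg16*, *Agr2*, *Spdef*, *Retnlb*, *Atoh1* and *Muc13*. They were taken by symbol, after the Ensembl gene IDs of the count files had been matched to GENCODE M21, and all 10 were found among 35275 gene IDs. Counts came from 5 WT and 5 KO libraries, 1 mouse per library, with RNA from frozen proximal intestinal segments that had been kept in RNAlater. KO stands for loss of *Zip14* (*Slc39a14*), a zinc transporter. The sample labels give only KO, the series title places the deletion in enterocytes, and the methods of the study describe whole-body KO mice for RNA-seq, so that the kind of deletion cannot be told from the sources used here. For the whole-body line, the study's methods describe WT mice of the same strain from matings of heterozygous parents, and whether the WT mice here are those depends on the kind of deletion. Mice of both groups were between 8 and 10 weeks old according to the labels (the study's methods give a wider range), both sexes were used, and no treatment is given for either group. Libraries held between 16729787 and 20819678 counts in WT and between 17118742 and 19414828 in KO mice.

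Mucus in the small intestine is built around *Muc2*, a gel-forming mucin that goblet cells fold, coat with sugars, pack into granules and release. Other secreted proteins bind to, cut or stabilise the gel: *Fcgbp* and *Zg16* are abundant mucus proteins, the latter a lectin-like protein that binds bacteria, *Clca1* is a metalloprotease of mucus, *Tff3* is a trefoil peptide involved in repair of the surface, and *Retnlb* is a resistin-like antimicrobial peptide that is known to be induced by type 2 cytokines and by bacteria. *Agr2* is a protein disulfide isomerase of the endoplasmic reticulum that is needed to make *Muc2*. *Atoh1* is the transcription factor that directs progenitors to the secretory lineages, and *Spdef* acts after it in goblet cell maturation. *Muc13* is a transmembrane mucin of the epithelial surface, found in enterocytes as well as in goblet cells.

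In KO mice 6 of the 10 genes, *Muc2*, *Tff3*, *Clca1*, *Agr2*, *Spdef* and *Atoh1*, were called higher, none was called lower, and *Fcgbp*, *Zg16* and *Muc13* were not called. *Retnlb* was nearly absent from WT libraries and was too low for the filter on low counts. Calls are those of the quasi-likelihood test of edgeR, run on TMM-scaled counts, with Benjamini-Hochberg adjusted p under 0.05 over 15610 genes, and 9 of the 10 genes entered the test. At an unadjusted p under 0.05 the same test also gave 6 higher and 0 lower. Among all tested genes 29.9% were called in either direction and 16.0% were called higher. DESeq2 called the same 6 genes and *Retnlb* higher and 0 of the 10 lower, beside 14.9% of all genes it tested that were called higher. In 7 of the 10 genes (the 6 called ones and *Retnlb*) the lowest KO library lay above the highest WT library, beside 10.2% of all tested genes. These are bulk samples, in which fewer cells of a type and less RNA per cell cannot be told apart. Levels are given as TMM CPM, counts scaled to library size by the TMM method, in the order of replicates 1 to 5.

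Before the values, *Slc39a14* itself was read in every library. It stood at 264, 357, 268, 191 and 223 TMM CPM in WT and at 160.1, 85.8, 93.8, 78.5 and 93.7 TMM CPM in KO mice. Every KO library was below every WT library, with KO 1 the highest of its group (log2 fold change -1.35, SE 0.22, edgeR adjusted p = 0.00184). Markers of other cells and of the position along the gut also separated the groups. *Fabp6*, a bile acid-binding protein of the ileum, was between 0.0638 and 1.74 TMM CPM in WT and between 2307 and 9058 in KO libraries. Of 9 tested ileum markers 7 were called higher, of 9 markers of the proximal intestine 5 were called lower, and all 10 smooth muscle markers were called higher. Of 6 tested colon markers 3 were called higher and 1 lower, and their median was 1.04 (log2). Of all tested genes, 13.9% were called lower and 16.0% higher. The mean log2 CPM of the smooth muscle markers was between 6.46 and 7.27 in WT and between 7.96 and 9.40 in KO libraries. Summed over the lists, ileum markers ran from 619 to 1467 TMM CPM in WT and from 4068 to 11250.5 in KO, markers of the proximal intestine from 4080 to 4320.2 in WT and from 192 to 1089 in KO, and smooth muscle markers from 1217 to 2166 in WT and from 3275 to 9821 in KO, and colon markers from 706 to 758 in WT and from 1626 to 3164 in KO. None of the markers of these 4 lists was at 0 in all libraries. Of 10 general epithelial markers 6 were called higher and none lower, with a mean log2 CPM between 9.82 and 10.1 in WT and between 10.2 and 10.6 in KO libraries. Their part in the results below was not tested, except where the goblet cell genes are set against the epithelial markers or fitted with a score of the markers, and the level of the segment along the gut and the genotype cannot be told apart.

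Promoters are shown for 3 of the genes, because *Muc2* and *Spdef* were called higher while *Fcgbp* was not. The RefSeq promoter table (GRCm38.p6) held an entry for 6 of the 10 genes. The 250 bases before the start are printed from 5′ to 3′ on the strand of the gene, in lower case with matches to 4 short motifs in capitals: CAGCTG, an E-box of the kind bHLH factors such as *Atoh1* bind, CGGAT, an ETS-type core of the kind *Spdef* binds, TAAACA of forkhead factors, and TATAAA, the TATA box. Both strands were searched, and no matches overlapped.
Muc2, chr7:141690090-141690339, plus strand: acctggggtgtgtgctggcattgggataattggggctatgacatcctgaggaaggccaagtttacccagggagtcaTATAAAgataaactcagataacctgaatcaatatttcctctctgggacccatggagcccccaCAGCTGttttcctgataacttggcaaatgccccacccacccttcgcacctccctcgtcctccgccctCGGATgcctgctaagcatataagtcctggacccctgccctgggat
Fcgbp, chr7:28070986-28071235, plus strand: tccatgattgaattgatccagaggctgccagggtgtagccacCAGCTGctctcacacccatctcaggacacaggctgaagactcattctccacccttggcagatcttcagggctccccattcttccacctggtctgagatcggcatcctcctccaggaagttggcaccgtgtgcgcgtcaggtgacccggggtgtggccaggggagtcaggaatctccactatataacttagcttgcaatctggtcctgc
Spdef, chr17:27728952-27729201, minus strand: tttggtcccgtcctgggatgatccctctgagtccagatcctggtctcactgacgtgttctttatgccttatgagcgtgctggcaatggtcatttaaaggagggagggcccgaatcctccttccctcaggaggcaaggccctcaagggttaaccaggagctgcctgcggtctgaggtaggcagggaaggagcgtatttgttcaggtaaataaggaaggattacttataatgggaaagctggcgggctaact
The *Muc2* window held CAGCTG from -112 to -107, CGGAT from -45 to -41 and TATAAA from -174 to -169, counted from the base before the start as -1. The *Fcgbp* window held CAGCTG from -208 to -203, and the *Spdef* window held none of the 4 motifs. In all 32851 promoter windows of this length, CAGCTG was present in 13.0%, CGGAT in 13.4%, TAAACA in 12.0% and TATAAA in 12.4%. The windows of *Agr2*, *Atoh1* and *Muc13* held none of these letters. A match is a description of the sequence only, and *Tff3*, *Clca1*, *Zg16* and *Retnlb* are named without a window.

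**Figure D1:**
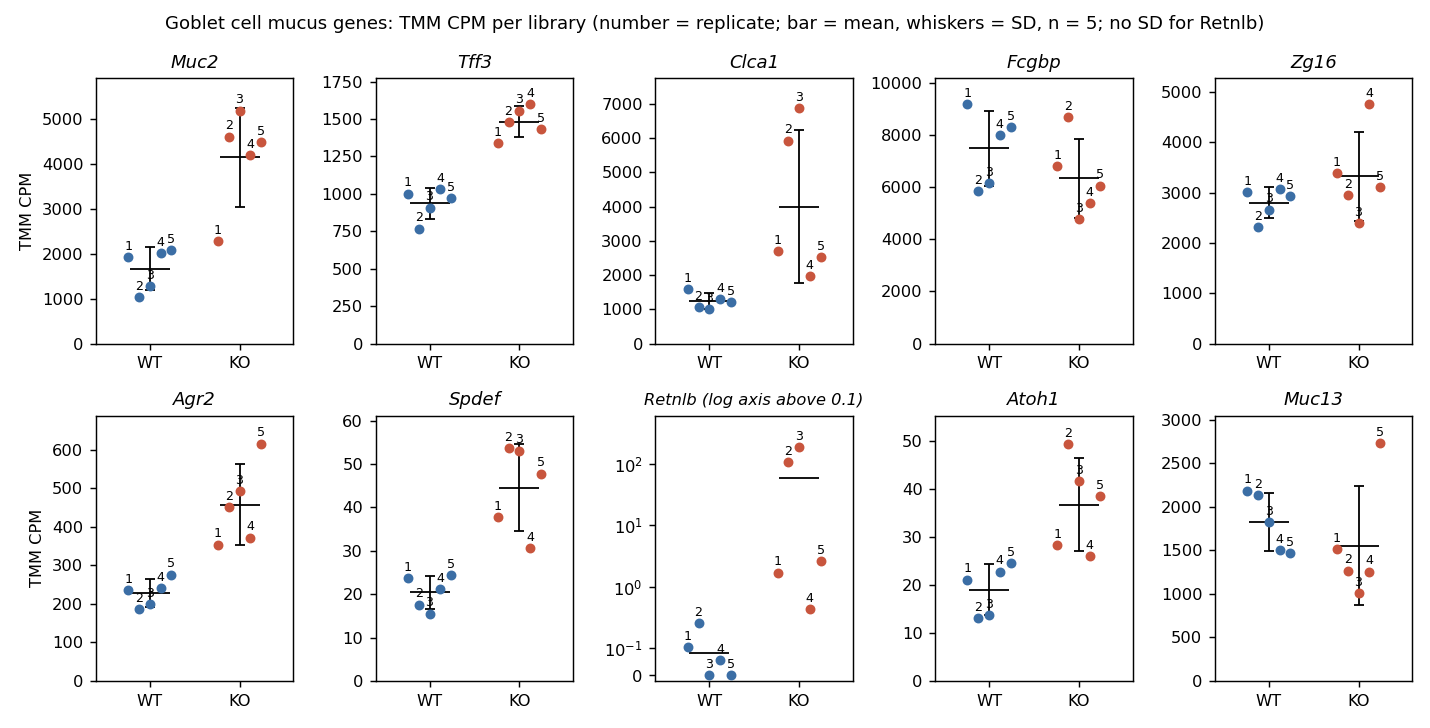
TMM CPM (y axis, linear from 0 except in the *Retnlb* panel, which is on a log axis above 0.1) of the 10 goblet cell genes in 5 WT (blue) and 5 KO (red) libraries, numbered by replicate, with the mean as a bar and the SD as whiskers. The KO points of *Muc2*, *Tff3*, *Clca1*, *Agr2*, *Spdef*, *Retnlb* and *Atoh1* lie above all WT points, and those of *Fcgbp*, *Zg16* and *Muc13* overlap them.

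The gel-forming mucin came first. *Muc2* (ENSMUSG00000025515, chromosome 7, 141690340 to 141754693, plus strand) was at 1929, 1038, 1280.2, 2014 and 2079 TMM CPM in WT mice. In KO mice it was at 2280.2, 4603, 5182, 4198 and 4477 TMM CPM. All KO libraries exceeded all WT libraries, but KO 1 was close to the top of the WT group and the other KO libraries were well above it. The mean rose from 1668 ± 475 to 4148 ± 1104 TMM CPM (SD, n = 5 each), a ratio of 2.49, and the log2 fold change was 1.31 (SE 0.26, edgeR adjusted p = 0.00486). Among WT mice, WT 2 and WT 3 were the lowest, and these were also the libraries with the highest mean log2 CPM of proximal intestine markers, 5.95 and 5.81, against values from 4.40 to 4.92 in the other WT libraries. The mean log2 CPM of the epithelial markers was lowest in WT 2 and WT 3, at 9.84 and 9.82, against values from 10.05 to 10.08 in the other WT libraries.

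*Muc13*, the membrane-bound mucin (ENSMUSG00000022824, chromosome 16, 33794037 to 33819934), was at 2187, 2139, 1827, 1506 and 1471 TMM CPM in WT mice. Values in KO mice were 1515, 1267, 1008, 1255 and 2729 TMM CPM. The groups overlapped, with KO 5 above every WT library and 3 KO libraries below all of them. The log2 fold change was -0.23 (SE 0.26, edgeR adjusted p = 0.520), with a 95% interval from -0.80 to 0.34. Leaving out KO 5, the highest KO library, gave -0.53 (edgeR adjusted p = 0.0481), the only call of *Muc13* when single mice were left out. With KO 2 and KO 3 both left out the log2 fold change was 0.0062 (edgeR adjusted p = 0.989). An antisense gene, *Gm15657*, overlaps 184 exon bases of *Muc13*, and the handling of strand is not given in the sources used here.

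Of the secreted partners of the gel, *Tff3* and *Clca1* rose and *Fcgbp* and *Zg16* were not called. *Tff3* (ENSMUSG00000024029, chromosome 17) was at 1002, 769, 909, 1029.9 and 969.5 TMM CPM in WT and at 1336, 1480.1, 1556, 1598 and 1434 TMM CPM in KO mice. Libraries of *Tff3* were the most alike within a group, with a coefficient of variation of 11.1% in WT and 6.96% in KO mice, and the groups were well apart. The mean of *Tff3* was 1.58 times higher in KO mice (log2 fold change 0.66, SE 0.12, edgeR adjusted p = 0.00317).

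*Clca1* (ENSMUSG00000028255, chromosome 3) was at 1592, 1067, 1017, 1297 and 1208 TMM CPM in WT and at 2689, 5923, 6873, 1979 and 2520.1 TMM CPM in KO mice. KO 2 and KO 3 were far above KO 1, KO 4 and KO 5, and even the lowest KO library was above the highest WT library. The coefficient of variation was 18.4% in WT and 55.9% in KO mice. The log2 fold change was 1.69 (SE 0.35, edgeR adjusted p = 0.00544), the largest of the 9 tested genes with all libraries in. Without KO 2 and KO 3, the mean was 2396 TMM CPM, 1.94 times that of WT mice, and the log2 fold change was 0.96 (edgeR adjusted p = 0.0131), below the 1.13 of *Muc2* and the 0.98 of *Agr2* in the same fit.

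*Fcgbp*, the Fc-binding mucus protein (ENSMUSG00000047730, chromosome 7), was at 9198, 5845, 6158, 8001 and 8289.7 TMM CPM in WT and at 6808, 8688, 4783, 5391 and 6057 TMM CPM in KO mice. The groups overlapped, and 2 KO libraries, KO 3 and KO 4, were below all WT libraries. The log2 fold change was -0.24 (SE 0.21, edgeR adjusted p = 0.398), with a 95% interval from -0.70 to 0.22, which does not hold the fold change of *Muc2*.

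*Zg16* (ENSMUSG00000049350, chromosome 7) was at 3014, 2316, 2664, 3077 and 2927 TMM CPM in WT and at 3383, 2951, 2396, 4757 and 3116 TMM CPM in KO mice. KO 1, KO 4 and KO 5 were above the WT range, KO 4 by the most, and KO 2 and KO 3 were within it. The log2 fold change was 0.25 (SE 0.19, edgeR adjusted p = 0.335), with a 95% interval from -0.17 to 0.66.

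Ratios within a library are given as a description with no test, since the pairs were picked after their values had been seen. The log2 ratio of *Muc2* to *Fcgbp* was between -2.49 and -1.99 in WT and between -1.58 and 0.12 in KO libraries, without overlap. The log2 ratio of *Tff3* to *Zg16* hardly varied among WT libraries, from -1.59 to -1.55, and ran from -1.57 to -0.62 in KO libraries. Within the summed counts of the 10 genes, *Fcgbp* made up between 43.7% and 48.0% in WT and between 21.2% and 36.9% in KO libraries. *Muc2* went from between 7.75% and 12.0% to between 12.4% and 23.0%, and *Clca1* from between 6.99% and 8.29% to between 10.1% and 30.5%. Together the 10 genes made up 1.25% to 1.78% of a WT library and 1.80% to 2.73% of a KO library.

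The isomerase *Agr2* and the transcription factors *Spdef* and *Atoh1* rose in KO mice. *Agr2* (ENSMUSG00000020581, chromosome 12) was at 235, 186, 199, 241 and 276 TMM CPM in WT and at 354, 450.0, 492, 372 and 615 TMM CPM in KO mice. The groups did not overlap, and KO 5 was the highest library. The log2 fold change was 1.01 (SE 0.17, edgeR adjusted p = 0.00222).

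*Spdef* (ENSMUSG00000024215, chromosome 17) was at 23.7, 17.6, 15.5, 21.1 and 24.4 TMM CPM in WT and at 37.7, 53.6, 53.1, 30.6 and 47.8 TMM CPM in KO mice. KO 4 was the lowest of its group and still above all WT libraries. Its log2 fold change was 1.12 (SE 0.18, edgeR adjusted p = 0.00175).

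*Atoh1* (ENSMUSG00000073043, chromosome 6) was at 21.1, 13.1, 13.8, 22.8 and 24.5 TMM CPM in WT and at 28.3, 49.4, 41.8, 26.0 and 38.6 TMM CPM in KO mice. The gap between the groups was narrow, from WT 5 to KO 4. The log2 fold change was 0.95 (SE 0.23, edgeR adjusted p = 0.0109). With KO 2 and KO 3 both left out it was 0.70 (edgeR adjusted p = 0.0612), and 5 of the tested genes were then called higher, beside 10.7% of all tested genes. Both factors were lowest in WT 2 and WT 3 among WT libraries, as were *Muc2*, *Tff3*, *Clca1*, *Fcgbp*, *Zg16* and *Agr2*.

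*Retnlb* (ENSMUSG00000022650, chromosome 16, 48816856 to 48818892) differed from the other genes in its range. Its counts in WT libraries were 2, 4, 0, 1 and 0, or 0.104, 0.255, 0, 0.0550 and 0 TMM CPM. KO libraries held 30, 2037, 3405, 9 and 49 counts, or 1.69, 107, 184, 0.429 and 2.57 TMM CPM. KO 2 and KO 3 thus carried 98.4% of the 5530 counts of the KO group, yet each of the other 3 KO libraries was also above every WT library. A count of 0 allows up to 3 counts in a library, counting error only. The difference of the mean log2 CPM, with a prior count of 2, was 5.67 (exact permutation test, two-sided p = 0.00794, the smallest possible with 5 against 5), and 6.81 with a prior count of 0.5. Without KO 2 and KO 3 it was 2.997 (p = 0.0179, the smallest that this exact test can give with 3 against 5), and the ratio of mean CPM went from 713 to 18.9. The gene fell below the filter because KO 4 was low, and without a filter edgeR called it, at 9.39 on the log2 scale (adjusted p = 0.00569).

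The 2 libraries with most *Retnlb* and *Clca1* also stood apart in tuft cell genes. *Dclk1*, a kinase that marks tuft cells, was at 68.8 and 103 TMM CPM in KO 2 and KO 3, between 9.29 and 25.4 in the other KO libraries and between 15.5 and 20.1 in WT libraries. *Trpm5*, the ion channel of tuft cells, was at 74.1 and 102 TMM CPM in KO 2 and KO 3 and between 7.94 and 25.5 in all other libraries. Summed over 10 tuft cell genes, the level was between 77.7 and 130 TMM CPM in WT and between 49.2 and 569 in KO libraries, none of the 10 genes was at 0 in all libraries, and edgeR called 0 of 9 tested genes, with a median log2 fold change of 1.18. At an unadjusted p under 0.05, 2 of them were higher, and DESeq2 called 1 higher. *Il13*, a type 2 cytokine, had few counts in any library, with at most 0.165 TMM CPM in WT, 0.892 in KO 2, 0.216 in KO 3 and 0 in the other KO libraries. *Il25*, a cytokine made by tuft cells, was also sparse, at no more than 0.255 TMM CPM in WT libraries, at 0.839, 1.13 and 0.572 in KO 2, KO 3 and KO 4, at 0.113 in KO 1 and at 0 in KO 5. Colon markers had their highest mean log2 CPM in KO 2, at 5.80. KO 3, at 3.43, was just above the other KO libraries, which were between 2.58 and 3.25, and WT libraries were between 1.89 and 2.66. *Car1*, a carbonic anhydrase of the colon, was at 1172 TMM CPM in KO 2, at 0.540 in KO 3, at 11.3 in KO 4 and at 0 in all other libraries. *Aqp8*, of the same list, was at 70.8 TMM CPM in KO 2, at 0.0477 in KO 4 and at 0 in KO 1, KO 3 and KO 5. In WT libraries *Aqp8* was at 6.69, 17.7, 49.9, 0 and 0.224 TMM CPM. The part of tuft cells or of the position along the gut in the levels of *Retnlb* and *Clca1* was not tested.

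**Figure D2:**
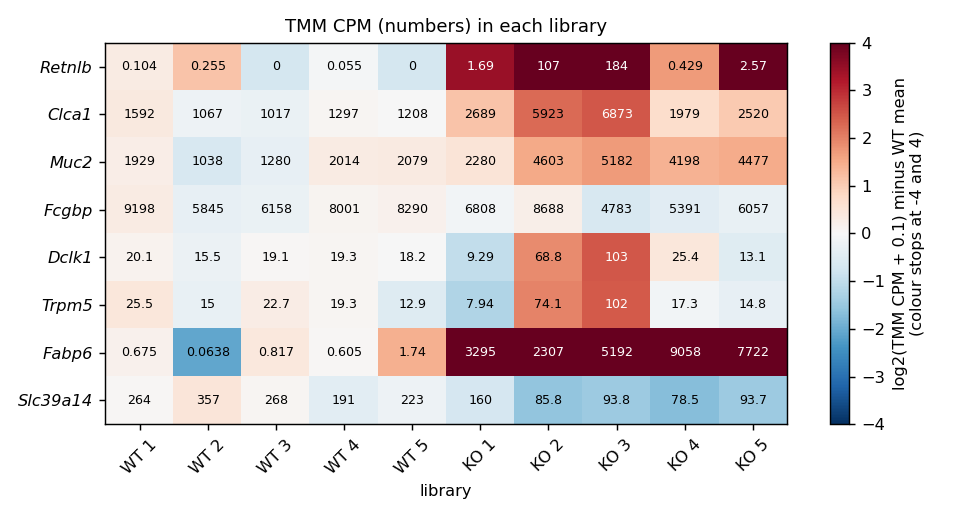
TMM CPM (numbers) of 8 genes (rows) in the 10 libraries (columns), coloured by log2(TMM CPM + 0.1) minus the mean of the WT libraries, with the colour scale ending at -4 and 4. KO 2 and KO 3 are the highest libraries for *Retnlb*, *Clca1*, *Muc2*, *Dclk1* and *Trpm5*, while *Fabp6* is high in all 5 KO libraries and *Slc39a14* is low in all 5.

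To set the goblet cell genes against the epithelium as a whole, each was taken relative to the mean log2 CPM of 10 epithelial markers, and compared by an exact two-sided permutation test. *Clca1* (1.12, exact p = 0.00794), *Spdef* (0.69, exact p = 0.00794) and *Retnlb* (5.25, exact p = 0.00794) were higher in every KO library than in any WT library on this log2 scale. *Muc2* (0.90, exact p = 0.0317), *Agr2* (0.57, exact p = 0.0159) and *Atoh1* (0.54, exact p = 0.0476) also passed an unadjusted p of 0.05 by the exact test, with some overlap of libraries. Thus 6 of the 10 genes were higher relative to the epithelial markers, beside 4.48% of all tested genes. *Tff3* did not pass, at 0.25 (exact p = 0.0794), but gave 0.51 (exact p = 0.00794) when the keratins *Krt8*, *Krt18* and *Krt19*, which were themselves called higher, were taken off the list. *Fcgbp* (-0.67, exact p = 0.0238) and *Muc13* (-0.72, exact p = 0.0238) were lower relative to the epithelial markers, a share of 2 in 10 beside 49.3% of all tested genes, and *Fcgbp* no longer passed without the keratins (-0.40, exact p = 0.0794). *Zg16* gave -0.20 (exact p = 0.333). When the smooth muscle score was added to the edgeR model as a covariate, 0 of the 9 tested genes were called higher, beside 0.0384% of all tested genes, and with the epithelial score 0 were called higher, beside 0.141%. Over all 15610 genes these models made 9 and 30 calls in either direction. At an unadjusted p under 0.05, 4 of the 9 genes were higher with the smooth muscle score and 2 with the epithelial score, and the 6 genes had edgeR adjusted p between 0.150 and 0.546. With the smooth muscle score the log2 fold changes were 2.20 for *Clca1* (SE 0.71), 1.42 for *Spdef* (SE 0.35), 1.06 for *Atoh1* (SE 0.45), 0.99 for *Agr2* (SE 0.34), 0.79 for *Muc2* (SE 0.49) and 0.40 for *Tff3* (SE 0.20). With the epithelial score they were 1.73 for *Clca1* (SE 0.70), 0.88 for *Muc2* (SE 0.45), 0.65 for *Spdef* (SE 0.31), 0.59 for *Tff3* (SE 0.22), 0.39 for *Atoh1* (SE 0.38) and 0.38 for *Agr2* (SE 0.23). All 6 thus stayed above 0 under both scores, with standard errors larger than without a score. Both scores separated the groups, so that the score and the genotype cannot be told apart in these models.

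**Figure D3:**
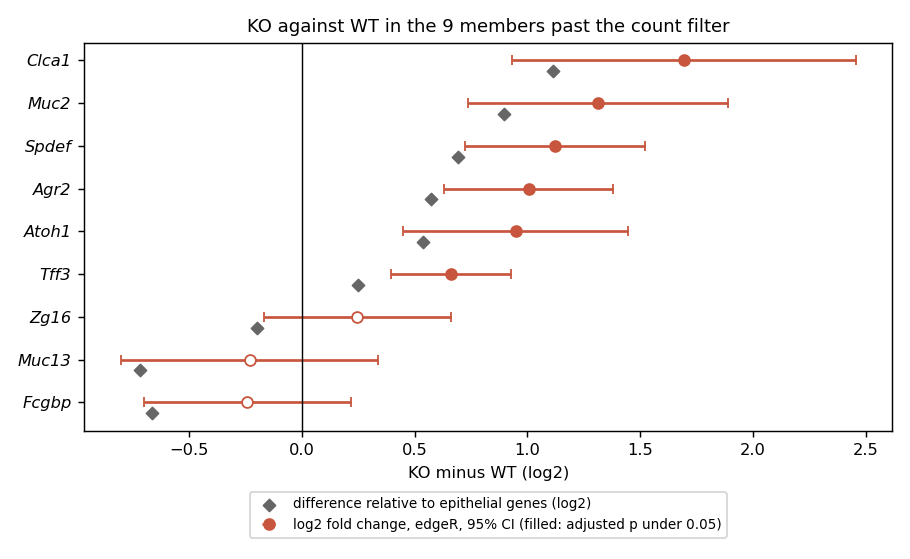
Log2 fold change of KO against WT (x axis) with its 95% interval for the 9 goblet cell genes past the count filter, filled where the edgeR adjusted p was under 0.05, and the difference relative to the epithelial markers (grey diamonds). The 6 filled genes run from 0.66 for *Tff3* to 1.69 for *Clca1*, the intervals of *Fcgbp*, *Zg16* and *Muc13* hold 0, and every diamond lies to the left of its circle.

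To put the goblet cell genes in order, TMM CPM per kilobase of exon was used, and the order below is of levels, not of differences. Ratios within a library, shares of counts and the genes with the most counts of a list, given elsewhere, were not scaled by length. In WT mice *Zg16* (2227 CPM per kb) and *Tff3* (1898) led, and their ranges over libraries overlapped. *Fcgbp* (714) and *Muc13* (601) came next, then *Clca1* (327), *Muc2* (234) and *Agr2* (176), in each case with overlap between neighbours except from *Tff3* to *Fcgbp* and from *Muc13* to *Clca1*. *Atoh1* (8.99) and *Spdef* (8.88), as transcription factors, were far lower than the secreted products and did not differ beyond their spread. *Retnlb* (0.119) was the last. In KO mice the order became *Tff3* (3004), *Zg16* (2642), *Clca1* (1058), *Fcgbp* (604), *Muc2* (582), *Muc13* (512), *Agr2* (354), *Retnlb* (84.9), *Spdef* (19.3) and *Atoh1* (17.4 CPM per kb), and neighbours overlapped except from *Zg16* to *Clca1* and from *Agr2* to *Retnlb*. The place of *Retnlb* rested on KO 2 and KO 3, since in the other 3 KO libraries it was between 0.616 and 3.69 CPM per kb, below every library of *Spdef* and *Atoh1* in KO mice. The level of *Muc2* per length is uncertain, since its models in GENCODE M21 are fragments with 7127 exon bases in all.

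Of 22 further goblet cell markers, all tested, 14 were called higher and 1, *Tspan13* (-0.39, edgeR adjusted p = 0.0345), was called lower, and the median log2 fold change was 0.80 against 0.03 over all tested genes, of which 16.0% were called higher and 13.9% lower. *Klk1*, a kallikrein protease, was at 64.3, 42.5, 57.6, 60.8 and 59.2 TMM CPM in WT and at 85.2, 264, 317, 142 and 182 in KO mice (log2 fold change 1.80, SE 0.30, edgeR adjusted p = 0.00218). The groups did not overlap, and KO 2 and KO 3 were again the highest. *Spink4*, a secreted protease inhibitor of goblet cells, rose from 397 ± 134 to 1269 ± 875 TMM CPM (log2 fold change 1.68, edgeR adjusted p = 0.0110), with KO 3 at 2799 TMM CPM. *Tpsg1* rose from 9.63 ± 2.48 to 28.4 ± 16.3 TMM CPM (1.56, edgeR adjusted p = 0.00982), and *Guca2a*, the precursor of guanylin, from 224 ± 162 to 646 ± 82.4 TMM CPM (1.53, edgeR adjusted p = 0.0214). *Scin* gave 0.50 (edgeR adjusted p = 0.0695).

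Among 12 transcription factors and Notch genes that act on goblet cells, 5 were called higher and 1 lower, beside 16.0% and 13.9% of all tested genes, with a median of 0.29. *Foxa1*, a forkhead factor of secretory cells, was at 12.9, 11.4, 10.0, 14.7 and 16.6 TMM CPM in WT and at 33.5, 44.0, 45.8, 24.2 and 38.4 in KO mice. Its lowest KO library was well above its highest WT library (log2 fold change 1.50, SE 0.19, edgeR adjusted p = 0.000554). *Creb3l1* (1.20), *Creb3l4* (0.97), *Foxa3* (0.81) and *Elf3* (0.55) were the other genes called higher, with edgeR adjusted p between 0.00225 and 0.00528. *Dll1*, the Notch ligand of secretory progenitors, fell from 35.1 ± 3.21 to 18.0 ± 3.87 TMM CPM (log2 fold change -0.96, SE 0.14, edgeR adjusted p = 0.00108). *Klf4*, a factor of goblet cell differentiation, gave 0.26 (edgeR adjusted p = 0.215).

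Of 19 tested genes of the machinery that folds and releases mucin, 4 were called higher and none lower, beside 16.0% and 13.9% of all tested genes. The share called higher was near that of all genes, the median was 0.19, and none was lower at an unadjusted p under 0.05 or by DESeq2. These were *Qsox1*, a sulfhydryl oxidase (0.92, edgeR adjusted p = 0.00443), *Pdia5*, a disulfide isomerase (0.84, 0.00375), *Rab27a*, a small GTPase of secretory granules (0.62, 0.0218), and *Tmed3*, a cargo receptor (0.48, 0.00237). The genes of the list with the most counts, not scaled by length, were *Mep1b*, *Txndc5* and *Nlrp6*. They gave -0.28, 0.24 and -0.34 and were not called.

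Of 14 tested enzymes that build the O-glycans of mucins, 4 were called higher and 1 lower, with a median of 0.15, against 16.0% higher and 13.9% lower over all tested genes. *Fut2*, the fucosyltransferase that caps glycans in the gut, was at 2.08, 0.829, 0.525, 1.32 and 1.57 TMM CPM in WT and at 4.11, 70.0, 72.4, 4.57 and 30.4 in KO mice. The groups did not overlap, with KO 2, KO 3 and KO 5 far above the rest (log2 fold change 4.82, SE 0.87, edgeR adjusted p = 0.00310). *B3gnt6*, the core 3 synthase (1.79), and the core 2 enzymes *Gcnt1* (1.70) and *Gcnt3* (0.73) were also called higher, with edgeR adjusted p between 0.00181 and 0.0187, and the sialyltransferase *St3gal1* was called lower (-0.78, edgeR adjusted p = 0.0181). *B4galnt2*, *Galnt1* and *Galnt4*, with the most counts of the list, not scaled by length, gave -0.18, -0.26 and 0.17 and were not called.

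**Figure D4:**
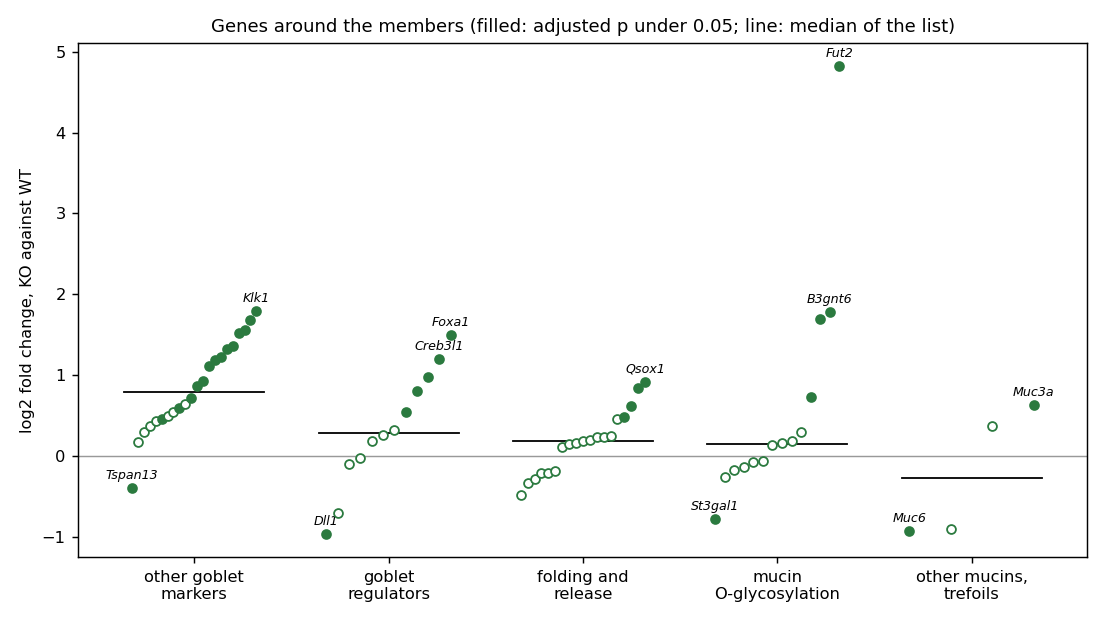
Log2 fold change of KO against WT (y axis) for every tested gene of 5 lists around the goblet cell genes, filled where the edgeR adjusted p was under 0.05, with the median of each list as a line. Most filled points of the further goblet cell markers lie above 0, with a median of 0.80, and *Fut2* is the highest point at 4.82.

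Other mucins and trefoil factors were few. Of 11 found, 4 passed the filter, *Muc3a* was called higher (0.63, edgeR adjusted p = 0.0496) and *Muc6* lower (-0.92, edgeR adjusted p = 0.0389), while *Muc3* (0.38) and *Muc4* (-0.91) were not called. With 1 call in each direction among 4 genes, beside 16.0% higher and 13.9% lower over all tested genes, nothing is read from this list. The stomach mucin *Muc5ac* and the trefoil factor *Tff1* were near 0 in both groups, with means of 0.135 and 0.0105 TMM CPM for *Muc5ac* in WT and KO mice. Among 13 tested paralogs of the goblet cell genes, 4 were called higher (*Retnla*, 3.28, *Retn*, 2.76, *Ehf*, 1.10, and *Elf3*, 0.55) and *Clca3a1* was called lower (-1.16, edgeR adjusted p = 0.00499). Their median log2 fold change was 0.02, against 0.03 over all tested genes, of which 16.0% were called higher. *Clca4b* and *Clca4a*, the most abundant relatives of *Clca1*, gave -0.57 and -0.72 and were not called (edgeR adjusted p = 0.200 and 0.153). Reads of such close relatives, *Muc3* and *Muc3a* among them, may be split between them in ways that the counts do not show. Of 7 tested genes of the cytokine signals known to act on goblet cells, *Il4ra* was called higher (0.31, edgeR adjusted p = 0.0144), and *Il33* (-2.11, edgeR adjusted p = 0.000484), *Il10rb* (-0.47, edgeR adjusted p = 0.00402) and *Stat6* (-0.34, edgeR adjusted p = 0.0405) were called lower, beside 16.0% higher and 13.9% lower over all tested genes.

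Markers of the other epithelial cells were counted in the same way. Of 10 Paneth cell genes edgeR called 0, with a median log2 fold change of 0.49, while 2 were higher at an unadjusted p under 0.05 and DESeq2 called 1 higher. Of 10 enteroendocrine genes 7 were called lower and 1, *Sct*, higher (0.85, edgeR adjusted p = 0.0225), with a median of -1.53. Of 10 enterocyte genes 6 were called lower and none higher, with a median of -2.01. *Anpep* (-0.11), *Apoa1* (-0.36), *Fabp2* (-0.24) and *Lct* (-4.16, edgeR adjusted p = 0.0632) were not called. *Lct*, and *Cck* of the enteroendocrine genes, are also among the markers of the proximal intestine. The part of the position along the gut in these counts was not tested. Over all tested genes 16.0% were called higher and 13.9% lower.

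Genes with the profile most like a goblet cell gene were looked for over all 10 libraries, by the root mean square difference of log2 CPM centred on the gene's own mean. For *Muc2* they were *Shf* (0.117), *Dusp10* (0.187) and *Pla2g10* (0.201), of which *Pla2g10* is among the further goblet cell markers. For *Retnlb* they were *Krt84* (1.26), *Pla2g4c* (1.35) and *Gm8730* (1.46), at much greater distances, and *Pla2g4c* was at 2734 and 3913 TMM CPM in KO 2 and KO 3 and between 0.992 and 76.4 in the other libraries. For *Muc13* they were *B2m* (0.0990), *Psme2b* (0.116) and *Nfkbiz* (0.146), none of them called between the groups.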

How the data were processed

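RNA was extracted by the authors with TRI Reagent, and libraries were made with a SMARTER mRNA-Seq kit and sequenced on a NovaSeq instrument. The deposited values are counts per Ensembl gene ID, whole numbers that the authors left without normalization. The submitters' processing notes list FastQC 0.11.9, Trimmomatic, HISAT2 2.0.4, SAMtools 1.3.1 and DESeq2 1.14.1, with the builds GRCm38 and mm10. Which program counted the reads, on which annotation release and with which strand setting is not given in the sources used here. GENCODE M21 gave a symbol for 34490 IDs, and the 785 others stayed in the test.

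R 4.3.3 was used with edgeR 4.0.16 and DESeq2 1.42.0. Counts were filtered with filterByExpr (minimum count 10, minimum total 15), then scaled by TMM and tested with the quasi-likelihood test, without blocking. Standard errors are those of the model. Single values were compared by exact permutation over all splits into 5 and 5 of log2 CPM with a prior count of 2. Groups come from the labels, and p-values measure the spread between mice. The steps were tested on simulated data. Counting error only is covered by the allowance of 3 counts for a 0.

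The genes, lists and alternatives were chosen with earlier results of these data known. Named genes are the 10 goblet cell genes, *Slc39a14*, *Fabp6*, the 3 genes with the most counts and the 3 most changed called genes of a list, and the 3 nearest profiles of *Muc2*, *Retnlb* and *Muc13*. The genes *Dll1*, *Notch1*, *Il4ra*, *Foxa3*, *Elf3*, *Tspan13*, *Guca2a*, *Tmed3*, *Gcnt3*, *St3gal1*, *Ehf*, *Il13*, *Il25*, *Car1*, *Aqp8*, *Lct*, *Muc5ac*, *Tff1*, *Sct* and the keratins were chosen after their values were seen. Alternatives were RLE or library-size scaling, DESeq2, robust dispersion, no filter, a filter on a mean count of at least 10, another prior count, leaving out mice, a replicate block, and covariates. Leaving out KO 2 and KO 3 together and the shorter epithelial list were added after seeing the data.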

Additional observations from a re-analysis of the deposited data

Results flagged for a closer look

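In the KO group, *Muc2* in KO 1 stood apart from the other 4 libraries, at a log2 CPM of 11.2 with its nearest neighbour at 12.0, below them. *Slc39a14* in KO 1 also stood apart, at a log2 CPM of 7.32 with its nearest neighbour at 6.55, above them. Both were flagged because the gap to the nearest library, 0.744 and 0.751 of the range of the group, passed Dixon's critical value of 0.71 for 5 samples, and 22 groups of values were examined, of which chance flags about 1 in 20.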

How the results depend on the processing

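Of the goblet cell genes, 6 were called higher under TMM, RLE and library-size scaling and with robust dispersion, 7 by DESeq2, with no filter and with a filter on the mean count, where *Retnlb* was tested, and between 6 and 7 when single mice were left out. With KO 2 and KO 3 both left out there were 5. With the smooth muscle score as a covariate 0 were called higher, and with the epithelial score 0, but the log2 fold changes of the 6 stayed above 0, from 0.40 (*Tff3*) to 2.20 (*Clca1*) and from 0.38 (*Agr2*) to 1.73 (*Clca1*). Under the smooth muscle score *Fcgbp* became 0.080, *Zg16* -0.28 and *Muc13* 0.42, and *Muc13* became 0.0062 without KO 2 and KO 3, all uncalled. The number called lower ran from 0 to 1 over mice left out. Relative to the epithelial markers without the keratins, *Zg16* became 0.062. DESeq2 called 2 goblet regulators lower (*Dll1* and *Notch1*), against 1 by edgeR. The causes were not tested.

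With the replicate number as a replicate block, 6 were called higher and 0 lower. The correlations of same-numbered mice ran from -0.17 to 0.18, and 1 of 5 KO libraries was closest to the WT library of its own number. The numbers thus gave no sign of a pairing of the mice. Scaling to library size alone moved the median log2 fold change of all genes from 0.03 to 0.15 and the share of calls that were higher from 53.5% to 69.4%. A prior count of 0.5 in place of 2 moved the log2 difference of *Retnlb* from 5.67 to 6.81. Depth limits *Retnlb* in WT mice, where it had 7 counts in all.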
